A study of Mus musculus with 8 samples.

Results

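The machinery that drives hormone granules to fuse with the plasma membrane was followed through 70 genes among 49585 gene rows of the bulk pituitary RNA sequencing. The members were taken by symbol alone. They are 17 synaptotagmins (Syt), 15 syntaxins (Stx), 6 VAMPs (Vamp), 4 genes of the SNAP-25 family (Snap), 8 syntaxin binding protein genes (Stxbp), 6 Rab3 and Rab27 GTPases (Rab), 4 complexins (Cplx), 4 Unc13 genes, 4 Rims genes and the CAPS pair Cadps and Cadps2. One of the Stxbp rows, Stxbp3-ps, is a pseudogene with a close copy in Stxbp3, so reads between them may have been split. Whole pituitaries came from WT C57BL/6 mice, 4 libraries from old mice (18 to 24 months) and 4 from young mice (2 to 3 months), and age was the only labelled difference between the groups. The mice were kept on chow under pathogen-free conditions. The paper states that they were perfused to clear circulating immune cells before RNA was taken. Poly(A) RNA was sequenced, and levels are given as FPKM, that is, fragments scaled by exon length and by library size. The length covers all annotated exons of a gene, so the order of genes by FPKM depends on the annotation. The sources do not say whether each library came from 1 mouse, and a p-value here reflects library-to-library spread, which may be technical.

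Endocrine cells of the pituitary store their hormones in dense-core granules and release them when calcium enters the cell. A VAMP on the granule pairs with a syntaxin and SNAP-25 on the plasma membrane, and the zippering of these SNARE proteins pulls both membranes together. Rab3 and Rab27 bring granules to the membrane, Rims, Unc13 and CAPS proteins dock and prime them, proteins of the Stxbp family guide SNARE assembly, and synaptotagmins and complexins couple fusion to calcium. Other syntaxins, VAMPs and synaptotagmins serve the Golgi, endosomes, lysosomes and autophagosomes of every cell, so only some of the 70 genes belong to regulated release.

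The libraries held 16098529 to 19272103 fragments in the old group and 15042317 to 20429599 in the young group, as computed back from the FPKM values. The labelled tissue showed in the hormone cell list (Gh, Prl, Pomc and 8 other genes), which summed to 105326 to 133787 FPKM in old and 137422 to 162104 FPKM in young libraries, with no overlap, and 2 of its 11 genes, Gh and Lhb, fell by limma. Gh, which averaged 24327 FPKM in old and 62323 FPKM in young libraries, had the greatest difference in FPKM of the list. The granins Chga and Chgb, cargo proteins of the granules themselves, had every old library above every young one, at log2 fold changes of 0.68 and 0.85 that did not pass limma (adjusted p = 0.152 and 0.135). Scg2, another granin of the list, had overlapping groups, averaging 416 FPKM in old and 429 FPKM in young libraries (-0.04 ± 0.18, adjusted p = 0.918 by limma). The macrophage list summed to 63.5 to 86.6 FPKM in old and 29.1 to 49.7 FPKM in young libraries, also with no overlap. Old replicate 1 had the lowest value of its group for 38 of the 66 members tested (39.6% of all genes tested), and young replicate 2 had the lowest of its group for 42 members (38.7% of all genes). In bulk tissue, fewer cells of a type and less RNA per cell cannot be told apart.

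Of the 70 members, 66 had a mean of at least 0.1 FPKM over the 8 libraries and were tested. The other 4 were Syt2 with 13 fragments in all old libraries and 7 in all young libraries, Syt10 with 2 and 1 fragments in old and young libraries in turn, Cplx4 with a value above 0 in 1 old library only, and Syt8 with no fragment in any library. At these depths a gene with no fragment in a library may still have had as many as 3, equal to 0.147 to 0.199 CPM, by counting error alone.

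The gene with the highest FPKM was Syt4, an unusual synaptotagmin of maturing dense-core granules whose first C2 domain does not bind calcium as Syt1 does. Syt4 stood at 50.2, 54.7, 65.1 and 81.6 FPKM in the old libraries, against 69.3, 57.0, 83.7 and 85.7 FPKM in the young libraries. Its lowest library lay above the highest library of any other member, although 14.5% of its exon length is shared with the antisense row Gm26658. Cplx2, the complexin of neurons and endocrine cells, followed at 43.9, 41.2, 46.4 and 36.6 FPKM in the old libraries, against 45.0, 20.05, 37.2 and 43.5 FPKM in the young libraries. Young replicate 2 was the low library for Cplx2, and the other 7 lay between 36.6 and 46.4 FPKM. Vamp2, the granule SNARE cut by tetanus toxin, stood at 29.5, 30.7, 35.2 and 39.0 FPKM in the old libraries, against 29.04, 30.5, 30.9 and 33.1 FPKM in the young libraries. Further down by mean FPKM came Rab27a, Syt13, Syt7, Snap47, Stx16 and Snap25, and their ranges overlapped those of their neighbours in that order. Stx1a, a plasma membrane syntaxin of regulated release, was far lower at 0.699 to 1.33 FPKM in old libraries and 1.35 to 1.76 FPKM in young libraries. The lowest tested members, among them Rims1, Unc13c, Cplx3, Stx11 and Stx19, had means of 0.1002 to 0.262 FPKM.

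**Figure D1:**
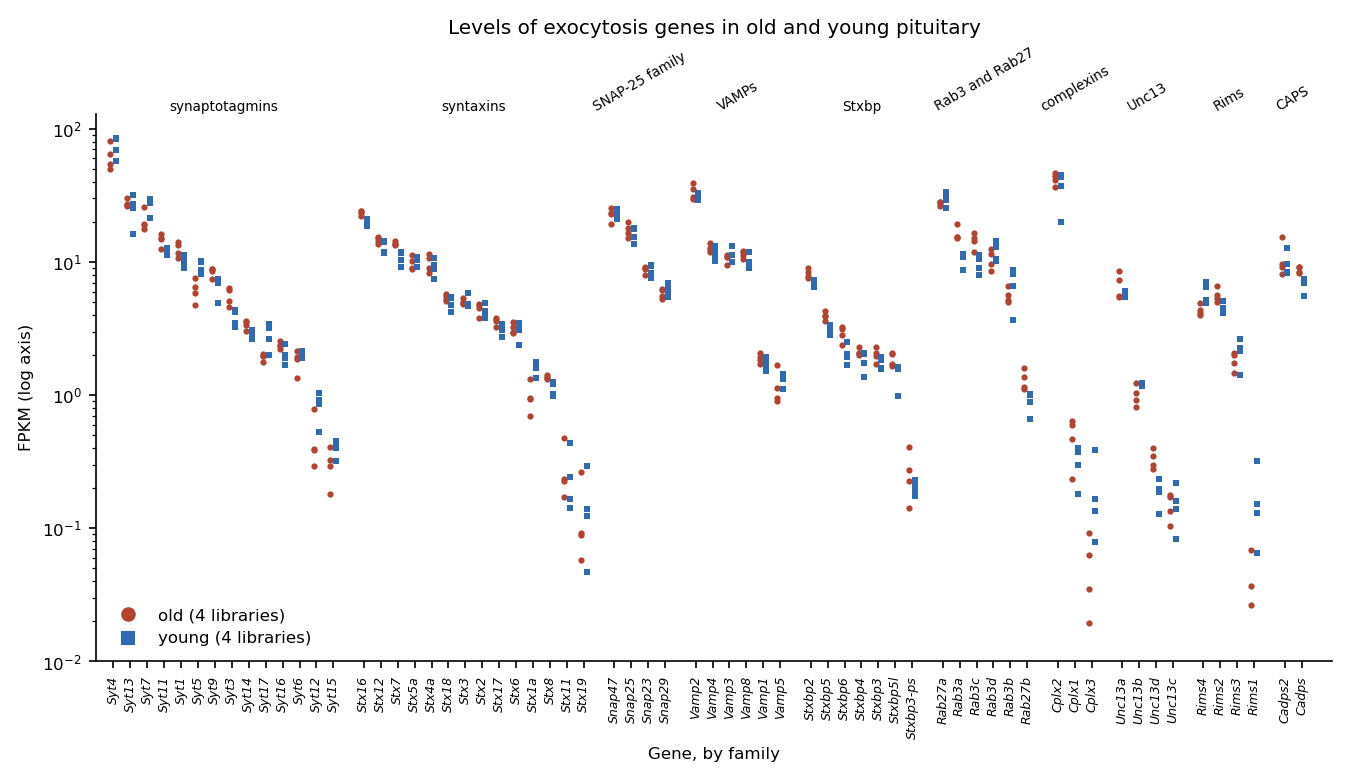
FPKM on a log axis for 64 of the 66 tested members, grouped by family and ordered by mean within it, with a red circle for each old library and a blue square for each young library; the old replicate 4 value of Rims1 is 0 and cannot be drawn. The genes span from Syt4 at the top to Rims1 at the bottom, and the old and young libraries are separate for 16 of them and overlap for the others.

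The comparison asked which of these genes differ between old and young pituitary. By limma on log2(FPKM + 0.1), with Benjamini-Hochberg adjustment over the 23498 genes tested, 0 of 66 members passed an adjusted p of 0.05 in either direction, where 2.33% of all genes did (1.86% higher and 0.472% lower in old). At an unadjusted p under 0.05, limma placed 17 members higher and 8 lower in old, 25 in all, beside 18.0% higher, 3.79% lower and 21.8% in either direction over all genes. Every old library lay above every young library for 13 members (13.4% of all genes tested did so), and below for 3 members, Rims4, Syt5 and Stx1a (2.06% of all genes). The 13 were Cadps, Rab3a, Rab3c, Rab27b, Stxbp2, Stxbp5, Stxbp5l, Unc13d, Syt3, Syt9, Stx7, Stx8 and Stx16. The median log2 fold change, old minus young, was 0.12 over the members tested and 0.15 over all genes tested, with 42 of 66 members above 0, beside 16446 of 23498 genes. Without young replicate 2, limma called 0 members and these medians were 0.07 over the members and 0.12 over all genes.

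The general shift of 0.15 bears on every direction below. With the libraries rescaled by the median ratio, the median over all genes was 0.01 and that over the members was -0.03, with 30 members above 0 and 36 below. Under this scaling limma called 206 genes higher and 217 lower over all genes (0.879% and 0.926%, 1.8% together), against 436 and 111 as deposited, and 1 member, Syt5, was called lower. A second test, limma's voom on fragments recovered from the FPKM values and added after seeing the data, called 8 of 64 members higher (Rab3a, Rab3c, Rab27b, Cadps, Syt3, Stxbp5, Stxbp6 and Stx7) and 2 lower (Syt5 and Stx1a), where 6.05% and 1.44% of all genes were called (7.49% together). With median-ratio scaling, voom called 2 members higher (Rab3a and Rab3c) and 9 lower (Syt5, Syt7, Syt12, Syt17, Stx1a, Rims4, Rab27a, Unc13b and Vamp3), beside 2.46% and 3.09% of all genes (5.55% together). Thus Rab3a, Rab3c, Syt5 and Stx1a were the 4 members called by voom under both scalings. Of the members called by voom as deposited, Rab3a and Rab3c kept the call in 8 of 8 fits with 1 library left out. Syt5 kept it in 5, Cadps in 4, Stx1a, Syt3 and Stxbp6 in 2 each, and Rab27b, Stxbp5 and Stx7 in 1 each. Members called only with a library left out are not listed.

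**Figure D2:**
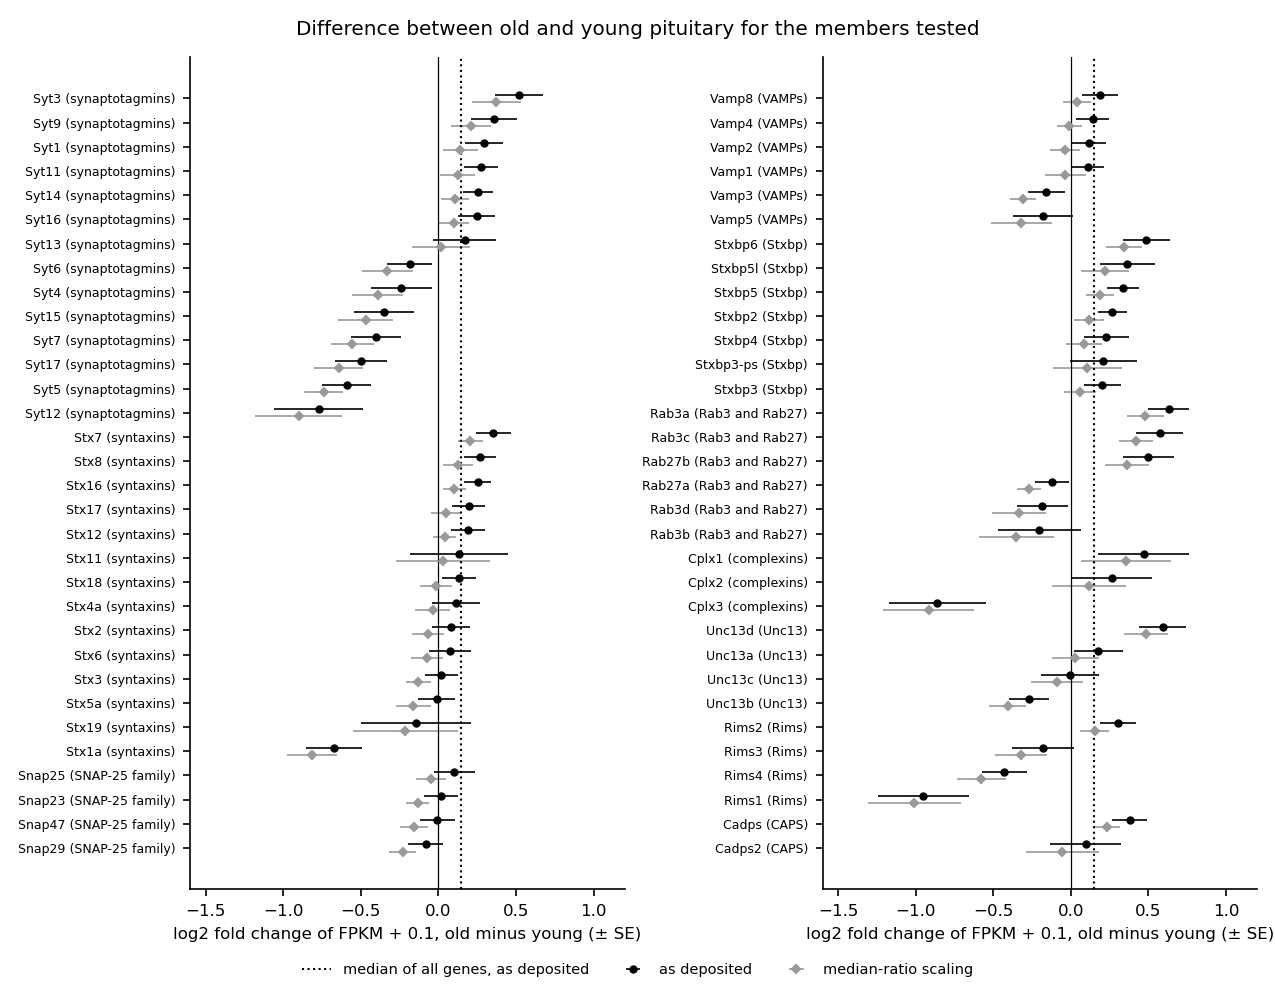
Log2 fold change of FPKM + 0.1, old minus young, with its standard error for 64 of the 66 tested members, as deposited (black circles) and after median-ratio scaling (grey diamonds); the dotted line is the median of all genes as deposited, 0.15. Rab3a, Rab3c, Rab27b, Unc13d and Syt3 lie furthest right, Rims1, Cplx3, Syt12, Stx1a and Syt5 furthest left, and the grey points lie to the left of the black ones.

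Among the GTPases that tether granules, none passed limma as deposited. All old libraries lay above all young ones for Rab3a, Rab3c and Rab27b, and the groups overlapped for Rab27a, Rab3d and Rab3b. Rab3a, the main Rab of synaptic vesicles and also found on endocrine granules, was at 15.1, 15.4, 19.4 and 15.5 FPKM in the old libraries, against 8.65, 11.5, 11.1 and 10.9 FPKM in the young libraries. All 4 old libraries lay above all 4 young ones, with old replicate 3 well above the other old libraries. The log2 fold change was 0.63 ± 0.13 (SE), with an adjusted p of 0.0564 by limma and 0.00563 by voom, and it was 0.48 after median-ratio scaling. Rab3c, a close relative of Rab3a, was at 11.9, 15.1, 16.4 and 14.3 FPKM in the old libraries, against 8.94, 7.97, 10.6 and 11.3 FPKM in the young libraries. Its groups were also separate, at 0.57 ± 0.15 on the log2 scale (adjusted p = 0.0936 by limma, 0.0106 by voom). Fragments counted over each group were 2608 in old and 1661 in young for Rab3a, and 12508 in old and 8399 in young for Rab3c. Rab27b, at 1.11 to 1.599 FPKM in old libraries and 0.666 to 1.02 FPKM in young libraries, had the same order of groups at a far lower FPKM level than Rab3a.

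Rab27a, which docks granules through its effector Sytl4, was the most abundant Rab of the set by FPKM at 26.5, 27.1, 28.3 and 28.0 FPKM in the old libraries, against 29.4, 25.3, 31.6 and 33.7 FPKM in the young libraries. The groups overlapped, with a log2 fold change of -0.12 ± 0.11 (adjusted p = 0.559 by limma), and after median-ratio scaling the value was -0.27, called lower by voom only under that scaling (adjusted p = 0.0373). By fragments, Rab27a lay below Rab3c, with 7615 against 12508 in old and 8330 against 8399 in young libraries. Rab3d, known from exocrine zymogen granules, was at 9.74, 12.5, 11.4 and 8.63 FPKM in the old libraries, against 10.2, 14.4, 12.9 and 10.6 FPKM in the young libraries. Old and young libraries overlapped for Rab3d too (-0.18 ± 0.16, adjusted p = 0.549 by limma). Rab3b, at 4.99 to 6.64 FPKM in old libraries and 3.68 to 8.72 FPKM in young libraries, was lowest in young replicate 2.

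The promoters of Rab3a and Rab3c, the members called by voom in every fit, and of Stx1a, called lower by voom under both scalings, are printed from RefSeq (GRCm38.p6) as 300 bases from 250 before to 50 after the annotated start, 5′ to 3′ on the gene's strand. Capitals mark the letters GGGCGG (the GC box), the motif CCAAT and the motif TGACGT (the core of a cAMP response element), or their reverse complements.
Rab3a chr8:70754453-70754752 plus strand: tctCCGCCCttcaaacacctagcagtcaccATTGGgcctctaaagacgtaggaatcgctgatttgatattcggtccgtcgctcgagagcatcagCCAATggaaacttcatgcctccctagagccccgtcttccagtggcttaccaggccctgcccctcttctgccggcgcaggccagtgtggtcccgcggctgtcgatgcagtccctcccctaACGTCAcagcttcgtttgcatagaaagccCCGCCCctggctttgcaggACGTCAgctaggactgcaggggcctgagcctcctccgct
Rab3c chr13:110280157-110280456 minus strand: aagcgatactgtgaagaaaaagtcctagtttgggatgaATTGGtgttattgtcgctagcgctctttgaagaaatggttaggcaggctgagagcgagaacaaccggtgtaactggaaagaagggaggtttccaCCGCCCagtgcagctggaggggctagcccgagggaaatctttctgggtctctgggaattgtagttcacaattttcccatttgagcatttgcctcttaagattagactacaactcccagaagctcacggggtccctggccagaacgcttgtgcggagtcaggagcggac
Stx1a chr5:135023232-135023531 plus strand: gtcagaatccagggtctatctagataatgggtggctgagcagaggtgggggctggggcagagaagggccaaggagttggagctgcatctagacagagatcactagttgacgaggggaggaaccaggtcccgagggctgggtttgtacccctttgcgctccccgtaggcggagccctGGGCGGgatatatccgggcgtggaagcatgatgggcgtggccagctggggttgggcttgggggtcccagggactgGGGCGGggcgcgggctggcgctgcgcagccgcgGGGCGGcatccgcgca
The Rab3a sequence, the first of 2 promoters listed for the gene, held 2 GC boxes, 2 CCAAT motifs and 2 cAMP response cores, that of Rab3c 1 GC box and 1 CCAAT motif, and that of Stx1a 3 GC boxes. None of the marked stretches overlapped another. Promoters were found for 53 of the 70 members, 66 promoters in all, and 68.2% of these held a GC box, against 35.7% of the 32851 promoters in the table. The CCAAT motif was in 34.8% of member promoters and 37.4% of all, and the cAMP response core in 6.06% and 7.51%. The E-box CACGTG was in 15.2% of member promoters and 7.15% of all. TTCAGCACC, the left part of the neuronal RE1 silencer element, was in 1 of the 66 member promoters (1.52%) and in 0.371% of all. These are letter matches on both strands, counted whether or not a member differed between ages.

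Among the priming factors, none passed limma. All old libraries lay above the young ones for Cadps and below them for Rims4, and the groups overlapped for Unc13a, the most abundant Unc13. Cadps (CAPS1), which primes dense-core granules, was at 8.26, 9.11, 9.17 and 8.44 FPKM in the old libraries, against 7.02, 5.57, 6.89 and 7.40 FPKM in the young libraries. No old library lay within the young range, the log2 fold change was 0.38 ± 0.11, and the adjusted p was 0.116 by limma and 0.0282 by voom. With median-ratio scaling the value was 0.23 and the voom call was lost (adjusted p = 0.0986). Cadps2, its paralog, was at 8.18, 9.19, 9.74 and 15.5 FPKM in the old libraries, against 8.31, 12.7, 9.69 and 8.47 FPKM in the young libraries. Old replicate 4 and young replicate 2 were its high libraries, and the groups overlapped (0.10 ± 0.23, adjusted p = 0.836 by limma). Unc13a (Munc13-1), which opens syntaxin for SNARE assembly, was at 5.43, 5.59, 7.30 and 8.55 FPKM in the old libraries, against 5.94, 5.83, 6.10 and 5.45 FPKM in the young libraries. Old replicates 3 and 4 lay above the other 6 libraries, and the log2 fold change was 0.18 ± 0.16 (adjusted p = 0.546 by limma). Unc13b, a paralog of many tissues, was at 0.808 to 1.24 FPKM in old libraries and 1.18 to 1.23 FPKM in young libraries, and Unc13c at 0.104 to 0.177 FPKM in old libraries and 0.0831 to 0.218 FPKM in young libraries.

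Rims4, a short Rims protein that keeps only the last C2 domain, was at 4.36, 3.97, 4.93 and 4.14 FPKM in the old libraries, against 5.205, 7.05, 6.51 and 4.94 FPKM in the young libraries. All old libraries lay below all young ones, the highest old library by a narrow margin, at -0.43 ± 0.14 (adjusted p = 0.147 by limma, 0.0522 by voom). Voom called it lower only with median-ratio scaling (adjusted p = 0.0245). Rims1, a full-length Rab3-binding scaffold of the release site, was listed at 0.0263, 0.0688, 0.0366 and 0 FPKM in the old libraries, against 0.320, 0.0657, 0.152 and 0.131 FPKM in the young libraries. These low values did not give whole fragments at the annotated exon length, so it is not known how many reads carry the log2 fold change of -0.95 ± 0.29 (adjusted p = 0.125 by limma). Its size moved with the pseudocount and was -0.17 with a pseudocount of 1 and -2.19 with 0.01. Rims2, the most abundant full-length Rims gene here, was at 5.01 to 6.57 FPKM in old libraries and 4.16 to 5.09 FPKM in young libraries, and Rims3 at 1.47 to 2.08 FPKM in old libraries and 1.43 to 2.63 FPKM in young libraries.

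Unc13d (Munc13-4), which primes lysosome-related granules of lymphocytes, mast cells and platelets, was low at 0.279, 0.347, 0.299 and 0.403 FPKM in the old libraries, against 0.236, 0.128, 0.188 and 0.199 FPKM in the young libraries. Its groups did not overlap (0.59 ± 0.15, adjusted p = 0.0860 by limma). In all, 111 fragments in old and 63 in young libraries carried this value. Stxbp2, which serves the same granules of blood cells, was at 7.56 to 8.95 FPKM in old libraries and 6.497 to 7.33 FPKM in young libraries, and Stx7, an endosomal syntaxin, at 13.4 to 14.3 FPKM in old libraries and 9.09 to 12.0 FPKM in young libraries. In the same libraries the old and young values of all 6 macrophage markers were separate, old on the higher side (C1qb at 18.9 to 24.6 FPKM in old libraries and 8.49 to 13.5 FPKM in young libraries), and 2 of the 6 (C1qb and Lyz2) passed limma. Jchain, of the lymphocyte and plasma cell list, passed too, and that list summed to 2.21 to 3.29 FPKM in old and 0.311 to 0.559 FPKM in young libraries. The part of such cells in the values of Unc13d, Stxbp2 and Stx7 was not tested.

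Among the SNAREs of regulated fusion, none passed limma, Snap25 and Vamp2 had overlapping groups, and all old libraries of Stx1a lay below the young ones. Snap25, the plasma membrane SNARE with Stx1a, was at 15.2, 16.5, 18.1 and 19.8 FPKM in the old libraries, against 15.4, 13.7, 17.8 and 18.1 FPKM in the young libraries. The groups overlapped (0.10 ± 0.13, adjusted p = 0.683 by limma). For Vamp2 the log2 fold change was 0.11 ± 0.11 (adjusted p = 0.593 by limma), and none of the 6 VAMPs and 4 SNAP-25 family genes reached an unadjusted p of 0.05 by limma or had separate groups. Of all genes, 21.8% reached that p, 13.4% had all old libraries above the young ones and 2.06% all below. Snap47, a SNAP-25 relative that lacks the lipid-anchored cysteines, was at 19.4, 23.02, 25.6 and 23.5 FPKM in the old libraries, against 23.5, 20.96, 22.2 and 24.9 FPKM in the young libraries. It stood above Snap25 by FPKM in each of the 8 libraries, at a shorter exon length (2651 against 6791 bases). Snap25 had more fragments, 8464 against 4352 in old and 7909 against 4320 in young libraries. Of the Snap47 exon length, 11.6% lies antisense to Jmjd4, and the strand setting is not given in the sources used here.

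Stx1a, the syntaxin that pairs with Snap25 and Vamp2, was at 0.699, 0.954, 0.934 and 1.33 FPKM in the old libraries, against 1.66, 1.35, 1.597 and 1.76 FPKM in the young libraries. The highest old library lay just below the lowest young one, and old replicate 1 was the lowest of all. The log2 fold change was -0.67 ± 0.18, with an adjusted p of 0.0973 by limma and 0.0435 by voom, on 187 fragments in old and 303 in young libraries. Voom kept the call in 2 of 8 fits with 1 library left out, and with median-ratio scaling (adjusted p = 0.0162). Stx16, the most abundant syntaxin and a SNARE of the trans-Golgi network, was at 22.1, 23.2, 24.3 and 24.1 FPKM in the old libraries, against 19.7, 19.1, 18.7 and 21.1 FPKM in the young libraries. Its old libraries all lay above the young ones (0.25 ± 0.09, adjusted p = 0.149 by limma), and the value was 0.10 after median-ratio scaling. Over all 15 syntaxins, limma gave 3 an unadjusted p under 0.05 on the higher side (Stx7, Stx8 and Stx16) and 1 on the lower (Stx1a), and 11 had a positive log2 fold change as deposited but 6 after median-ratio scaling. At that unadjusted p, 18.0% of all genes lay on the higher and 3.79% on the lower side.

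The remaining SNAREs belong mostly to other membranes, and their groups overlapped except for Stx7 and Stx8. On the plasma membrane of cells in general, Snap23 was at 8.03 to 9.11 FPKM in old libraries and 7.53 to 9.54 FPKM in young libraries, Stx4a at 8.30 to 11.5 FPKM in old libraries and 7.45 to 10.8 FPKM in young libraries and Stx3 at 4.86 to 5.41 FPKM in old libraries and 4.63 to 5.81 FPKM in young libraries. The endosomal Vamp3 was at 9.53 to 11.2 FPKM in old libraries and 10.1 to 13.2 FPKM in young libraries and Vamp8 at 10.6 to 12.2 FPKM in old libraries and 9.07 to 11.9 FPKM in young libraries, and the trans-Golgi Vamp4 at 11.9 to 13.8 FPKM in old libraries and 10.3 to 13.2 FPKM in young libraries. Each of these 6 genes stood above Stx1a in every library on the FPKM scale. Among the internal syntaxins, the endosomal Stx12 was at 13.7 to 15.5 FPKM in old libraries and 11.6 to 14.3 FPKM in young libraries, the Golgi Stx5a at 8.92 to 11.3 FPKM in old libraries and 9.10 to 10.99 FPKM in young libraries and the autophagosomal Stx17 at 3.24 to 3.81 FPKM in old libraries and 2.71 to 3.40 FPKM in young libraries. Stx8, which works with Stx7 on late endosomes, was at 1.31 to 1.42 FPKM in old libraries and 0.988 to 1.26 FPKM in young libraries, a separation of the groups at a low level.

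**Figure D3:**
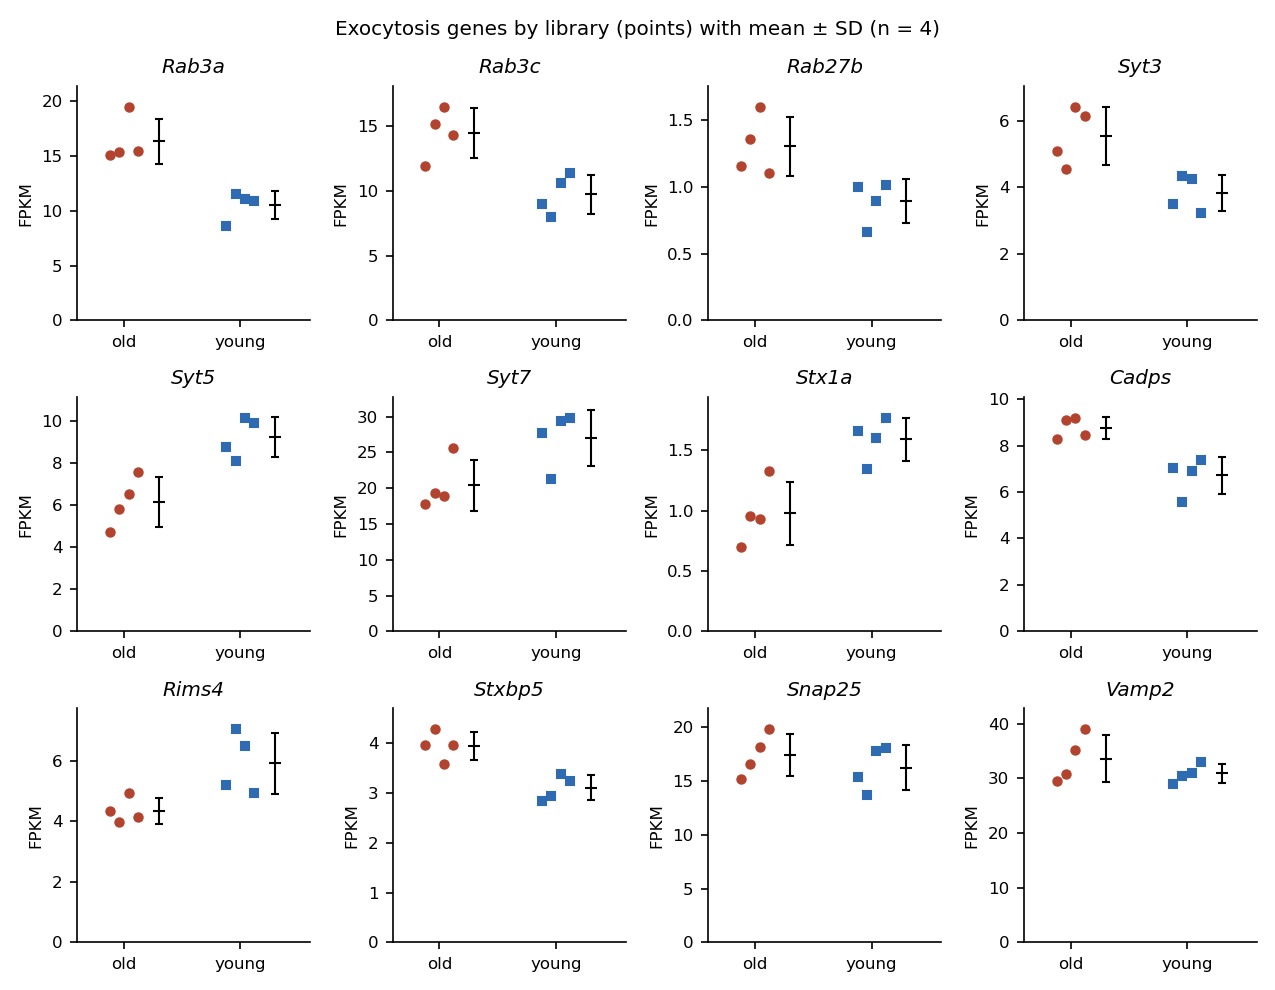
FPKM in each library for 12 members, old libraries as red circles on the left and young libraries as blue squares on the right of each panel, with the mean and SD of each group (n = 4) beside the points. Rab3a, Rab3c, Rab27b, Syt3, Cadps and Stxbp5 have all old libraries above the young ones, Syt5, Stx1a and Rims4 all below, and Syt7, Snap25 and Vamp2 overlap.

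Of the 8 Stxbp rows, all had a positive log2 fold change as deposited (7 after median-ratio scaling), with a median of 0.25, where 16446 of 23498 genes were positive as deposited, and 3 had every old library above every young one (13.4% of all genes). Stxbp5 (tomosyn), which occupies syntaxin and SNAP-25 in place of a VAMP and so holds back fusion, was at 3.95, 4.27, 3.58 and 3.96 FPKM in the old libraries, against 2.84, 2.93, 3.38 and 3.24 FPKM in the young libraries. All old libraries lay above the young ones, at 0.34 ± 0.10 (adjusted p = 0.118 by limma, 0.0413 by voom). The voom call was kept in 1 of 8 fits with 1 library left out and was lost with median-ratio scaling, where the limma value was 0.19 and the adjusted p of voom 0.225. Stxbp6 (amisyn), another syntaxin-binding inhibitor of SNARE assembly, was at 2.38, 3.25, 2.82 and 3.12 FPKM in the old libraries, against 1.94, 1.68, 2.05 and 2.49 FPKM in the young libraries. Its lowest old library reached into the young range (0.49 ± 0.15, adjusted p = 0.125 by limma, 0.0433 by voom, 0.111 by voom with median-ratio scaling). Stxbp5l (tomosyn-2) was at 1.65 to 2.06 FPKM in old libraries and 0.983 to 1.64 FPKM in young libraries, again with separate groups.

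The synaptotagmins were spread in both directions, with 7 of the 14 tested above 0 and 7 below under either scaling, and with 5 on the higher and 4 on the lower side at an unadjusted p under 0.05 by limma. Over all genes, 18.0% lay on the higher and 3.79% on the lower side at that p. Syt5, a calcium sensor found on dense-core vesicles, was at 4.75, 5.84, 6.52 and 7.57 FPKM in the old libraries, against 8.77, 8.13, 10.1 and 9.92 FPKM in the young libraries. The old and young libraries were separate, at -0.59 ± 0.16 on the log2 scale, with an adjusted p of 0.0948 by limma and 0.0164 by voom. After median-ratio scaling the value was -0.74 with an adjusted p of 0.0380 by limma, the only member called by limma there. Syt7, the high-affinity calcium sensor of slow granule release, was at 17.8, 19.4, 19.0 and 25.7 FPKM in the old libraries, against 27.7, 21.3, 29.4 and 29.8 FPKM in the young libraries. Old replicate 4 reached above young replicate 2, and the other old libraries lay below all young ones (-0.40 ± 0.16, adjusted p = 0.202 by limma).

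Syt3, another synaptotagmin with high calcium affinity, had the opposite order of groups at 5.08, 4.56, 6.41 and 6.14 FPKM in the old libraries, against 3.51, 4.33, 4.24 and 3.24 FPKM in the young libraries. Its log2 fold change was 0.52 ± 0.15 (adjusted p = 0.115 by limma, 0.0334 by voom, 0.134 by voom with median-ratio scaling). Syt1, the fast calcium sensor of synaptic vesicles, was at 11.8, 14.2, 13.3 and 10.8 FPKM in the old libraries, against 10.2, 9.07, 11.3 and 10.1 FPKM in the young libraries. Old replicate 4 lay within the young range and the other 3 old libraries above it (0.29 ± 0.12, adjusted p = 0.217 by limma). For Syt4 the value was -0.24 ± 0.20 (adjusted p = 0.519 by limma), with overlapping groups. Of the remaining members, Syt9, a calcium sensor of endocrine granules, had separate groups. It was at 7.46 to 8.82 FPKM in old libraries and 4.93 to 7.39 FPKM in young libraries. Syt12 was at 0.292 to 0.781 FPKM in old libraries and 0.525 to 1.04 FPKM in young libraries. Its fragments were 185 in old and 327 in young libraries, and 17.15% of its exon length lies antisense to A930001C03Rik. Syt17 was at 1.77 to 2.03 FPKM in old libraries and 2.02 to 3.44 FPKM in young libraries. Syt13 and Syt11, which do not sense calcium, were more abundant, with Syt13 at 26.5 to 30.2 FPKM in old libraries and 16.3 to 31.8 FPKM in young libraries and Syt11 at 12.6 to 16.1 FPKM in old libraries and 11.2 to 12.8 FPKM in young libraries.

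Complexins bind the assembled SNAREs and hold them until calcium arrives. For Cplx2 the log2 fold change was 0.27 ± 0.26 (adjusted p = 0.579 by limma) over all libraries, and 0.0037 without young replicate 2. Cplx1 was at 0.235 to 0.640 FPKM in old libraries and 0.182 to 0.403 FPKM in young libraries, and Cplx3, a complexin of retinal ribbon synapses, at 0.0194 to 0.0916 FPKM in old libraries and 0.0788 to 0.389 FPKM in young libraries, with overlapping groups for both.

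Ratios of 12 paralog pairs within a library, in which library scaling cancels except through the pseudocount of 0.1 (most for low genes such as Rims1), were compared between ages by a two-sided exact permutation test over the 8 libraries. The smallest p this design allows is 0.0286, and no pair passed 0.05 after Benjamini-Hochberg adjustment over the 12, of which 10 are reported. The log2 ratio of Rab3a to Rab3d was 0.62, 0.30, 0.76 and 0.83 in the old libraries, against -0.23, -0.32, -0.22 and 0.04 in the young libraries. All old ratios were higher. By FPKM, Rab3a exceeded Rab3d in every old library and lay below it in 3 of 4 young ones. The difference in the log2 ratio was 0.81 (exact permutation p = 0.0286, adjusted p = 0.0857). Which gene is the higher depends on exon length, 2226 bases for Rab3a against 4196 for Rab3d. By fragments, Rab3a lay below Rab3d in each of the 8 libraries, with 2608 against 3181 in old and 1661 against 3558 in young libraries.

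The log2 ratio of Unc13a to Unc13b averaged 2.62 ± 0.10 in old and 2.17 ± 0.08 in young libraries (SD, n = 4 each), a difference of 0.45 with the same exact permutation p. For Rab27a to Rab27b the ratio averaged 4.31 ± 0.21 in old and 4.93 ± 0.13 in young libraries, and the difference was -0.62, again with separate groups and the same p. Rims1 to Rims2 gave -1.25 with that p too, with the same limit on Rims1, and was -0.43 with a pseudocount of 1 and -2.49 with 0.01. Each of these 4 pairs thus reached the smallest p that the design gives. Rab3a and Rab27b had separate groups by themselves as well, and ratios of other gene pairs were not computed for comparison. Syt1 to Syt7 averaged -0.70 ± 0.37 in old and -1.39 ± 0.14 in young libraries, a difference of 0.70 (exact permutation p = 0.0571, adjusted p = 0.114), with old replicate 4 within the young range. The ratio of Snap25 to Snap23, plasma membrane SNAREs of regulated and of general exocytosis, differed by 0.09 (exact permutation p = 0.457).

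**Figure D4:**
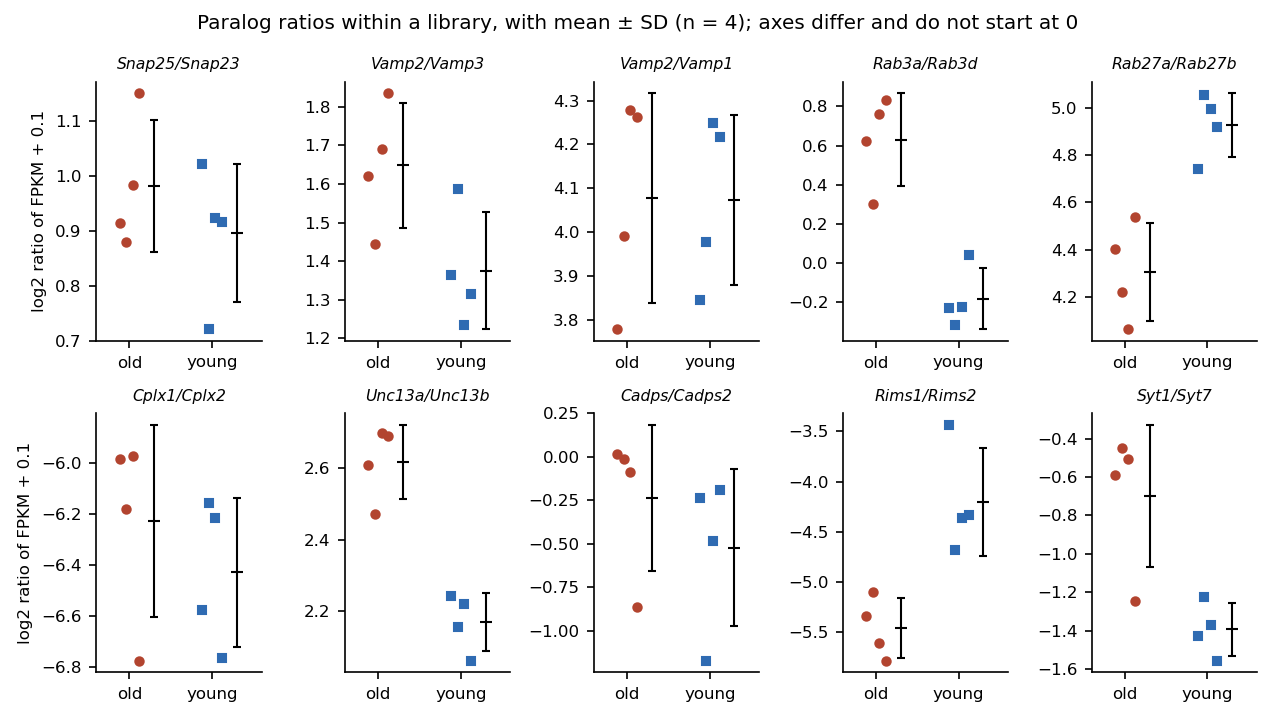
Log2 ratio of FPKM + 0.1 within each library for 10 paralog pairs, old libraries as red circles left and young libraries as blue squares right, with mean and SD (n = 4); the axes differ between panels and do not start at 0. The ages are separate for Rab3a/Rab3d, Rab27a/Rab27b, Unc13a/Unc13b and Rims1/Rims2 and overlap in the other 6 panels.

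The members fall into 2 lists and a rest. The regulated exocytosis core (30 genes, 28 tested) centred on a log2 fold change of 0.10 (median), with 7 members higher and 5 lower at an unadjusted p under 0.05 by limma. The SNAREs of constitutive, endosomal, Golgi and autophagic traffic (15 tested) had a median of 0.13, with 3 higher and 0 lower. The 23 tested members in neither list had a median of 0.20, with 7 higher and 3 lower. Over all genes the median was 0.15, with 18.0% higher and 3.79% lower at that unadjusted p. Neurons use many of the same genes, and the neuron list summed to 28.0 to 35.6 FPKM in old and 18.1 to 21.8 FPKM in young libraries, mostly through Tubb3, which rose, while Nefl and Nefm fell by limma. Of the defining neuronal markers Rbfox3 averaged 0.349 FPKM in old and 0.313 FPKM in young libraries, and Gad1 0.0112 FPKM in old and 0.00351 FPKM in young libraries. Slc17a6, the vesicular glutamate transporter, averaged 6.15 FPKM in old and 3.95 FPKM in young libraries (0.56 ± 0.26, adjusted p = 0.259 by limma), and Map2, of dendrites, 7.69 FPKM in old and 6.58 FPKM in young libraries (0.23 ± 0.14, adjusted p = 0.390 by limma), with overlapping groups for both. The part of neuronal RNA in the values of Rab3a, Syt3, Stx1a and the others was not tested.

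Outside the members, 41 effectors and recycling factors of the same pathway were counted, of which 39 were tested. By limma 1 passed, Syn2, a synapsin that tethers vesicles to the cytoskeleton, where 2.33% of all genes did, and 5 were higher and 1 lower at an unadjusted p under 0.05, beside 18.0% and 3.79% of all genes. Their median log2 fold change was 0.09, beside 0.15 over all genes. Syn2 was at 3.92, 3.52, 4.26 and 4.19 FPKM in the old libraries, against 2.32, 2.91, 2.44 and 2.64 FPKM in the young libraries. It rose in old pituitary by 0.60 ± 0.11 on the log2 scale (adjusted p = 0.0396 by limma, 0.00370 by voom), with every old library above every young one. The call was lost in limma after median-ratio scaling (0.46, adjusted p = 0.0985), while voom with that scaling kept it (adjusted p = 0.0163). It was also lost in 7 of 8 limma fits with 1 library left out, where the fold change stayed between 0.56 and 0.66 and the adjusted p went up to 0.115.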

How the data were processed

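The deposited values are FPKM for 49585 gene rows per library. The authors aligned reads with STAR (version 2.6.1a) to GRCm38, counted them with featureCounts and computed FPKM with edgeR (version 3.28.1), per the submitters' notes and the published methods. Neither the annotation release nor the strand setting was given in the sources used here. Members and gene lists were chosen with earlier results of these data known.

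Genes averaging 0.1 FPKM or more, 23498 in all, were tested with limma (version 3.58.1, in R 4.3.3) on log2(FPKM + 0.1), old minus young, over all 8 libraries without covariates. A gene was called at 0.05 after Benjamini-Hochberg adjustment over all genes. The fold changes are on the log2(FPKM + 0.1) scale, which understates those of low genes. The count test named in the methods could not be the main test on FPKM. Fragments were recovered from FPKM with GENCODE M21 exon lengths (91.1 to 91.9% of low values whole within 0.01 fragments), and limma's voom was run on them as an alternative chosen after seeing the data. The others were pseudocounts of 1 and 0.01, no filter, a mean of at least 1 FPKM, median-ratio and sum scaling, a trended robust prior, a replicate block and leaving out each library.

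Named members are the most abundant of each family, core members averaging 10 FPKM or more and, since none was called, the 10 with the smallest p. The others are given by range. The script was tested on simulated data without a general shift between ages, which checks the code and not the calls made here. Figures used matplotlib 3.10.9, and tables used pandas 2.3.3, scipy 1.17.1 and numpy 2.4.6 in Python 3.11.15. Vamp7 was not analysed here, and 2 members are not reported individually. No libraries were duplicates: chi-square per degree of freedom was at least 9.12 between libraries of 1 age.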

Additional observations from a re-analysis of the deposited data

Results flagged for a closer look

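Of the 66 groups of 4 libraries checked (23 named members and 10 paralog ratios, in each age), 2 held a library that stood apart from the other 3 by more than Dixon's test allows at n = 4, where chance gives about 1 in 20. Rab3a had 19.4 FPKM in old replicate 3, against 15.1 to 15.5 FPKM in the other old libraries. Without that library Rab3a was still higher in all 3 remaining old libraries than in any young one. The log2 ratio of Cadps to Cadps2 was -0.86 in old replicate 4, where the other old libraries ranged from -0.09 to 0.01. Cadps2 stood at 15.5 FPKM in that library.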

How the results depend on the processing

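As deposited, limma called 436 genes higher and 111 lower and 0 members in either direction. Genes called higher were 689 with a pseudocount of 1, 263 with no filter on low values, 796 with a mean of at least 1 FPKM, 206 with median-ratio scaling, 61 with sum scaling, 704 with a trended robust prior and 1307 by voom. Genes called lower were 217 with median-ratio scaling, 37 with sum scaling, 312 by voom and 669 by voom with median-ratio scaling. With 1 library left out, the counts ranged from 64 to 327 higher and from 21 to 163 lower, and limma called 0 members. By limma 1 member, Rab3a, was called higher with a pseudocount of 1, a mean of at least 1 FPKM or a trended robust prior, and 1, Syt5, lower with median-ratio scaling. Voom called 8 members higher and 2 lower, and with median-ratio scaling 2 higher and 9 lower; with 1 library left out it called 2 to 5 higher and 0 to 5 lower. The cause of these moves was not tested.

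The replicate block left 4 genes higher and 0 lower and called 0 members. Libraries of the same number did not deviate together over all genes tested (correlations of -0.04 to 0.04). Low genes carry the same weight as others in these correlations, so they cannot exclude a pairing. With the block, the standard error of Stx11 went from 0.314 to 0.104, and that of Cadps from 0.113 to 0.129.

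Of the 23 named members, 4 turned sign under an alternative. With median-ratio scaling, sum scaling and voom with median-ratio scaling, Cadps2 was at -0.054, -0.054 and -0.047 in turn, Snap25 at -0.048, -0.048 and -0.050, and Vamp2 at -0.037, -0.037 and -0.036. With 1 library left out, Cadps2 ranged from -0.10 (without old replicate 4) to 0.227, and Snap47 from -0.062 to 0.070, above 0 without old replicate 1, young replicate 1 or young replicate 4. The ratio of Cplx1 to Cplx2 was -0.088 with a pseudocount of 1, and that of Vamp2 to Vamp1 was -9.2e-05 with a pseudocount of 0.01. The other paralog ratios kept their direction with the pseudocounts tried. Depth limits Rims1, Unc13c, Cplx3, Stx11 and Stx19, and the fragments of Rims1, Stx11 and Cplx4 could not be recovered.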

Other observations

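Some effectors outside the 70 genes are named here after their values were seen. Sv2b, a glycoprotein of secretory vesicles, stood at 4.14, 3.36, 3.94 and 3.29 FPKM in the old libraries, against 2.06, 1.05, 1.34 and 2.21 FPKM in the young libraries. The log2 fold change was 1.15 ± 0.24 (adjusted p = 0.0534 by limma, 0.00149 by voom), the highest fold change of the 39 effectors tested. Sytl4 (granuphilin), which links Rab27a to the docked granule, was at 10.4, 12.2, 10.4 and 8.42 FPKM in the old libraries, against 19.4, 10.6, 20.8 and 19.3 FPKM in the young libraries. Young replicate 2 lay far below the other young libraries, and the log2 fold change of Sytl4 was -0.72 ± 0.23 (adjusted p = 0.138 by limma, 0.0222 by voom, 0.00803 by voom with median-ratio scaling). Without young replicate 2 it was -0.94 and passed limma (adjusted p = 0.0366). Sytl1, another Rab27 effector, was at 6.44, 7.20, 7.85 and 5.95 FPKM in the old libraries, against 4.87, 3.99, 5.40 and 5.08 FPKM in the young libraries. Its log2 fold change was 0.50 ± 0.13 (adjusted p = 0.0972 by limma, 0.0313 by voom, 0.0960 by voom with median-ratio scaling).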
